A study of Homo sapiens with 64 samples.

Results

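The FOS and JUN family comprises 7 human genes, FOS, FOSB, FOSL1, FOSL2, JUN, JUNB and JUND. All 17 probe sets that the platform annotation assigned to 1 of these symbols were taken, out of 41091 probe sets with a single symbol. FOSL2 had 5 probe sets, JUN and JUND had 4 each, and the other genes had 1 each. Every one of the 7 genes was among the 19775 genes tested, and no member was removed by a filter on low values.

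FOS and JUN proteins pair through leucine zippers to form activator protein 1 (AP-1), a transcription factor that binds a short palindromic DNA element. FOS proteins bind DNA only as partners of JUN proteins, whereas JUN proteins can also pair with each other. Several of the genes are immediate early genes, transcribed within minutes of a stimulus from pre-existing factors and silenced soon after. Cyclic AMP (cAMP) is one such stimulus, acting through protein kinase A and the factor CREB, which binds the cAMP response element (CRE). In airway epithelium AP-1 is known for its part in inflammatory and stress-induced transcription.

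Expression was measured on 64 arrays of BEAS-2B, an immortalised human airway epithelial cell line, in 16 groups of 4. Cells received vehicle, indacaterol at 10 nM, GSK 256066 at 10 nM (GSK below), or both drugs, for 1, 2, 6 or 18 h, and all groups had been moved to keratinocyte serum-free medium without the growth supplements a day earlier. Indacaterol is a long-acting agonist of the beta2-adrenoceptor, a receptor that raises cAMP. GSK inhibits phosphodiesterase 4, an enzyme family that degrades cAMP. Signals are linear array intensities in arbitrary units and are compared only within a probe set. Log2 differences were taken after adding 16 to each signal, so changes of dim genes come out too small. Each log2 difference is given with its moderated SE from 1 limma fit of all 64 arrays. That SE pools the spread over the 16 groups of 4 and is not the spread of the groups compared alone. A gene was called at an adjusted p under 0.05 (limma, Benjamini-Hochberg over all genes). Nothing in the labels says that replicates came from separate cultures, so p-values measure only the spread between these samples.

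The replicate numbers differed, and for FOS, JUNB, FOSL1 and JUN replicate 3 stood at 1 end in every treatment and time. FOS and JUNB had their highest signal of the group in replicate 3 in 16 of 16 groups, and FOSL1 and JUN their lowest in 16 of 16. On average FOS lay 0.90 above its group mean in replicate 3 on the log2 scale and JUNB 0.64, while FOSL1 lay at -0.77 and JUN at -0.52. Other numbers also deviated. Replicate 4 held the lowest FOS in 13 groups (mean deviation -0.68) and the lowest JUNB in 12 (-0.44), and replicate 1 the highest JUND in 14. FOSB was lowest in replicate 3 in 6 groups and FOSL2 in 9. The summed signal of 8 epithelial markers also differed, at 26209 to 37757 in replicate 3 against 12423 to 23617 in the others. Over all arrays the epithelial markers KRT8, KRT18 and DSP were bright, with ranges of 3048 to 6726, 5118 to 9853 and 2088 to 7127. CLDN1 ran from 542 to 2325, CDH1 from 141 to 1432 and EPCAM from 28.7 to 249. KRT7 varied from 239 to 10450 and KRT19 from 0.0040 to 4407. Of the fibroblast markers COL1A1 was bright, at 5431 to 10841, PDGFRB ran from 798 to 2539, and COL1A2, COL3A1, DCN, LUM and PDGFRA stayed at or below 243. Of the leukocyte markers PTPRC ran from 14.8 to 42.4, CD3E from 59.2 to 111, CD14 from 24.9 to 289 and ITGAM from 50.8 to 119. LYZ at 198 to 514 and CSF1R at 176 to 316 were brighter. Of the 7 fibroblast markers the summed signal was 7161 to 10357 in replicate 3 and 8678 to 13567 in the others, and that of 6 leukocyte markers was 709 to 1259. The part of these differences in the results was not tested. The median signal per array ran from 101 to 127.

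A replicate number recurs in every group. Same-numbered arrays deviated together in 20 of 26 comparisons of 2 groups, by a rule on their correlations, and the numbers were then taken to pair the arrays. For the 7 genes in those comparisons, the result with the replicate number as a block is given beside the first one wherever the call differed.

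The promoters of 6 members were available from RefSeq (GRCh38.p14, 250 bases before to 50 after the gene's start); FOSL1 was not among them. FOSL2, FOSB and FOS are shown because they had the highest log2 differences with indacaterol at 2 h, and JUND because its difference then was the nearest to 0. Letters that match a searched motif on either strand are in capitals: the CRE core TGACG, the full CRE TGACGTCA and the AP-1 site TGANTCA. A full CRE also contains the core.

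FOSL2, chr2:28392608-28392907, plus strand: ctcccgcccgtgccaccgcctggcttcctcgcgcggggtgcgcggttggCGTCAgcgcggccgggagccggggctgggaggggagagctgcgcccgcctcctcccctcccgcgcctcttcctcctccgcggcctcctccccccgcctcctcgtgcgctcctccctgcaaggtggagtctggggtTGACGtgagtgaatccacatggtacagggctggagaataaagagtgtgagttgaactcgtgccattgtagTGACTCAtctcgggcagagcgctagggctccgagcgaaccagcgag
FOSB, chr19:45467746-45468045, plus strand: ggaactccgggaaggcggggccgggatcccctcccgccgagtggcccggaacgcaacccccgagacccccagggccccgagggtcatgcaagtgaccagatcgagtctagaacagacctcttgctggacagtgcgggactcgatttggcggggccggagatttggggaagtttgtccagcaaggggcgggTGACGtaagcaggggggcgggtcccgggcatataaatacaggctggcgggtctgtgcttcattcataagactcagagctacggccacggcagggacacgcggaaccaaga
FOS, chr14:75278578-75278877, plus strand: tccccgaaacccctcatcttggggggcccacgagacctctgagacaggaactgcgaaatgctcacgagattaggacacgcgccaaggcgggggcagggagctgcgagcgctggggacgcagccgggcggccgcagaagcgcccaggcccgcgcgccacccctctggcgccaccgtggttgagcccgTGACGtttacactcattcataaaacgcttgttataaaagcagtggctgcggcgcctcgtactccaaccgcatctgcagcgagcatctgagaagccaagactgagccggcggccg
JUND, chr19:18281573-18281872, minus strand: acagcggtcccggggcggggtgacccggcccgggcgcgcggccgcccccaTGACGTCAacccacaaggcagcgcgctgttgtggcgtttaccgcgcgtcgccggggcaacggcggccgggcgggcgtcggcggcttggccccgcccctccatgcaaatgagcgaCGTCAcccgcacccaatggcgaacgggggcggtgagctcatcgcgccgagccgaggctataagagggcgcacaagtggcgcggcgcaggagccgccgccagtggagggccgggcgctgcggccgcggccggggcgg

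All 6 windows held the CRE core, which 24.6% of 35116 promoters of the same length held. In FOS it began 64 bases before the start, in FOSB 60 and in FOSL2 66 on the plus strand. The FOSL2 window held another copy on the minus strand, 201 bases before the start. JUN held the core 123 bases before the start and JUNB 137, neither printed here. The full CRE was in the JUND window alone among the 6 (1.85% of all promoters), and the AP-1 site, as the letters TGANTCA, in FOSL2 alone (7.71%). This AP-1 site began at base 5, counting from the start base itself. The CArG box, the element of serum response factor, was in none of the 6 windows (1.29% of all promoters). These are letter matches within 300 bases and show no binding. Variant spellings of the motifs were not searched, so a window without a match can still hold a variant.

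With indacaterol for 2 h, FOSL2 and FOSB rose, and at 1 h FOS, FOSL2 and JUNB rose once the replicate number was a block. Without the block no member was called at 1 h, where 3 had an unadjusted p under 0.05 (7.07% of all genes), and none of the 7 was called at 6 or 18 h in either fit. At 2 h 2 of the 7 genes were called without the block, both higher, against 1.20% of all genes. Neither of them belongs to the JUN branch. With the block 5 were called at 2 h, 4 higher and 1 lower, against 3.80%, in arrays that missed the pairing rule. The median log2 difference of the 7 genes at 2 h was 0.78, against -0.00018 over all genes. These comparisons ask what the agonist alone does at each time.

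FOSL2 encodes a FOS protein that, unlike FOS, lacks the strong carboxy-terminal activation domain. Its 2 h signal was 1894, 2141, 2129 and 1783 with vehicle in replicates 1 to 4 and 4826, 4046, 5001 and 3028 with indacaterol. All 4 indacaterol arrays lay above all 4 vehicle arrays. The mean went from 1987 ± 177 to 4225 ± 900 (SD, n = 4 each), a ratio of 2.13 and a log2 difference of 1.06 ± 0.15 (limma adjusted p = 7.17e-06). Without the arrays of replicate 3 the FOSL2 difference was 1.00 (limma adjusted p = 5.21e-05). The other 4 FOSL2 probe sets, fitted with all 41091, rose by 1.08, 1.33, 1.13 and 1.21 and were all called.

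FOSB is an immediate early FOS gene whose single probe set was dim. Its 2 h signal was 46.7, 46.5, 18.7 and 37.8 with vehicle and 129.6, 97.1, 88.2 and 61.4 with indacaterol. The groups did not overlap, and the lowest vehicle array was replicate 3. The log2 difference was 1.05 ± 0.24 (limma adjusted p = 0.0066), a ratio of means of 2.51. Without replicate 3 it was 0.87 (limma adjusted p = 0.146), so the FOSB call was lost. It was also lost in fits without replicate 1 or 2, without the single array of vehicle replicate 3 or of indacaterol replicate 1 at 2 h, with a pseudocount of 1, and with only these 2 groups fitted.

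FOS, the archetypal immediate early gene, had the widest span of the 7. At 1 h its signal was 280.1, 227, 336 and 144 with vehicle and 561, 312, 1668 and 263 with indacaterol. Each indacaterol array exceeded the vehicle array of the same number, by 0.96, 0.43, 2.26 and 0.81 on the log2 scale, although the groups overlapped. The log2 difference of 1.11 ± 0.53 was not called (limma adjusted p = 0.659, 0.212% of genes called at 1 h). With the replicate number as a block its SE was 0.24 and FOS was called (limma adjusted p = 0.00533, 1.04% of genes called). With the block and without replicate 3 the FOS difference was 0.73 (limma adjusted p = 0.0557). At 2 h FOS signals were 86.3, 61.4, 86.4 and 36.0 with vehicle and 226, 143, 551 and 82.4 with indacaterol. Each indacaterol array again exceeded the vehicle array of the same number. The difference of 1.42 ± 0.53 was not called (limma adjusted p = 0.319). At this time the replicate numbers did not meet the pairing rule (lowest correlation 0.0802). With the block the limma adjusted p was 3.03e-05. With the block and without replicate 3 it was 0.000155, at a difference of 1.07.

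JUNB encodes a JUN protein that is a weaker activator than JUN at many AP-1 sites. At 1 h JUNB had 733, 619, 1031 and 565 with vehicle and 1592, 982, 2068 and 652 with indacaterol. All 4 numbered pairs were higher with indacaterol, by 0.20 to 1.10 on the log2 scale, while the groups overlapped. The difference was 0.74 ± 0.36 (limma adjusted p = 0.69; 0.015 with the block; 0.146 with the block and without replicate 3). FOSL2 at 1 h had 1987, 1830, 1676 and 1803 with vehicle and 3562, 2604, 2791 and 2104 with indacaterol, with no overlap. Its difference of 0.57 ± 0.15 had a limma adjusted p of 0.132, of 0.0186 with the block, and of 0.0456 with the block and without replicate 3. At 2 h JUNB differed by 0.78 ± 0.36 (limma adjusted p = 0.571, and 0.00208 with the block, outside the pairing rule).

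Without the block and with all arrays, FOSL1, JUN and JUND were not called with indacaterol at any time. FOSL1, a FOS gene associated with epithelial migration, had at 2 h 570.0, 833, 327 and 518 with vehicle and 445, 454, 220.1 and 355 with indacaterol. The groups overlapped, all 4 numbered pairs were lower with indacaterol, and the difference was -0.57 ± 0.38 (limma adjusted p = 0.831). Without replicate 3, the lowest array of both groups, FOSL1 was called lower (-0.58, limma adjusted p = 0.0325). JUN, the founding JUN gene, differed by -0.29 ± 0.27 at 1 h and by -0.36 ± 0.27 at 2 h. JUND, a JUN gene expressed at a steady level in many cells, differed by 0.05 ± 0.11 at 2 h, with a 95% interval from -0.18 to 0.27. Of the other 3 JUND probe sets, 1 with a mean signal of 77.3 was called lower (-0.41 ± 0.10, limma adjusted p = 0.0174), while the other two differed by 0.13 and 0.15 and were not called.

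**Figure D1:**
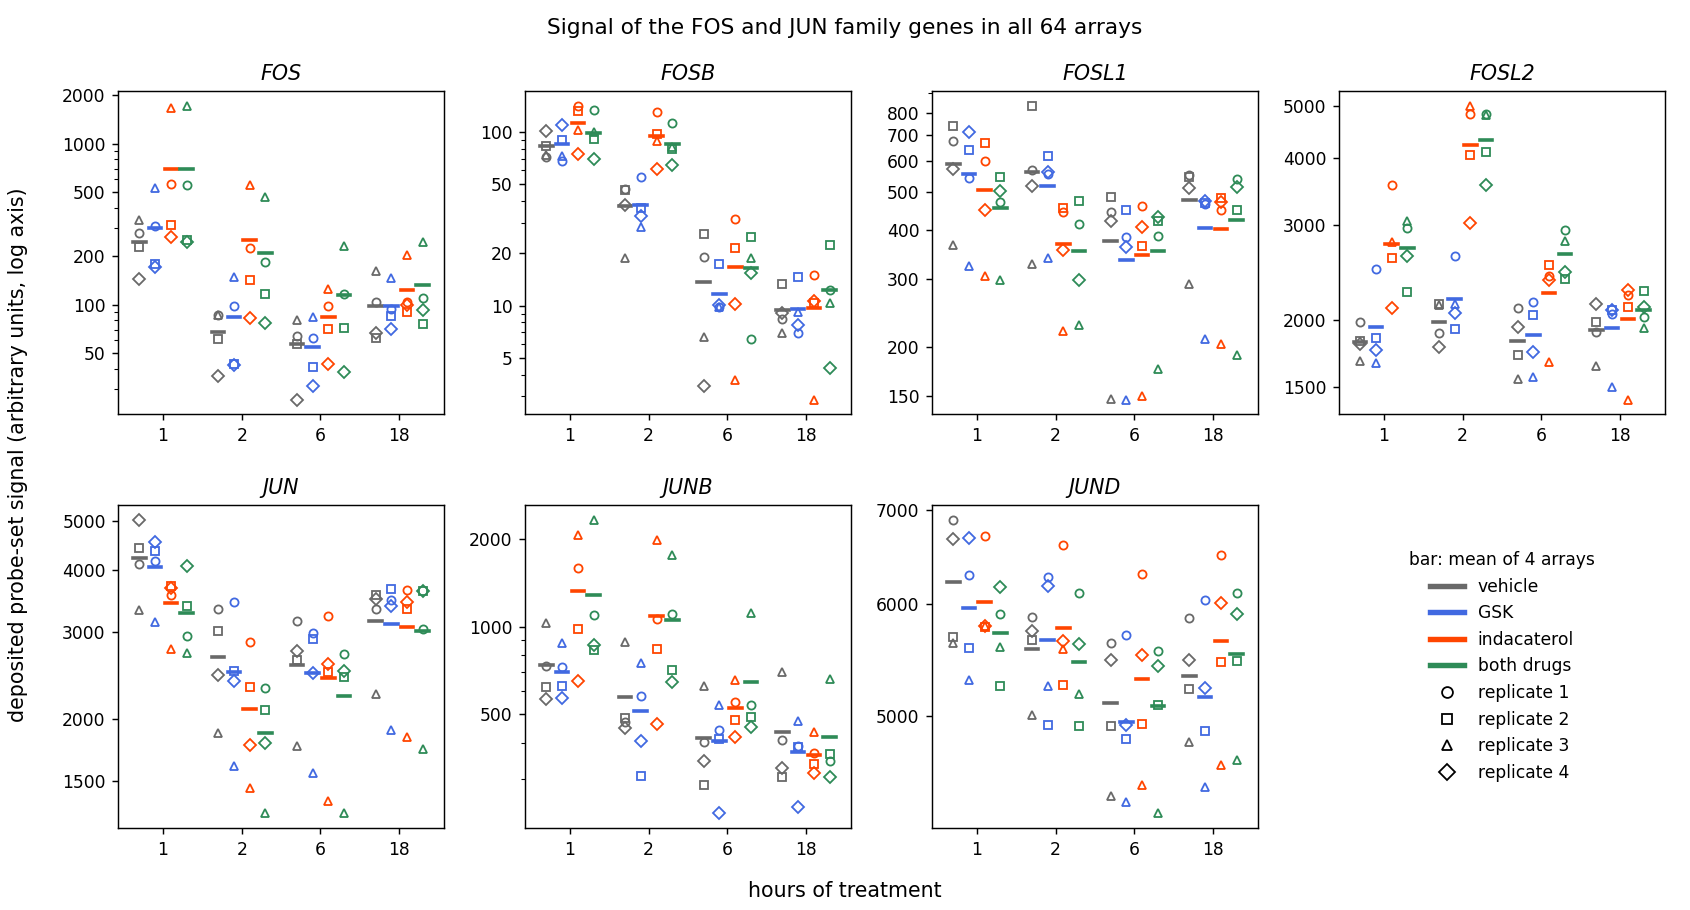
Deposited signal (arbitrary units, log axis) of the 7 genes in every array against hours of treatment, with marker shape for the replicate number, colour for the treatment and a bar at the mean of 4 arrays. FOSL2 with indacaterol or both drugs peaked at 2 h, at means of 4225 and 4322, FOS was highest at 1 h in every treatment, and replicate 3 (triangles) was the highest FOS and JUNB array and the lowest FOSL1 and JUN array of every group.

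At 6 h with indacaterol 0.273% of genes were called and at 18 h 0.00506%, with no member among them by limma at either time. No member had an unadjusted p under 0.05 at 6 or 18 h, and the block called none. FOS had a difference of 0.45 ± 0.53 at 6 h and FOSL2 one of 0.28 ± 0.15. At 18 h the 7 differences ran from -0.27 to 0.30. Whether the indacaterol difference varied between the 4 times was tested with a moderated F-test. FOSL2 had an adjusted p of 0.0597 in this limma F-test and FOSB one of 0.743, and no member was called (0.268% of genes called). With quantile normalization, without dim genes or with the mean over probe sets, 1 member was called in this F-test.

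Both drugs against GSK ask what indacaterol added in the presence of GSK, in arrays that indacaterol against vehicle does not use. The same replicate numbers recur in both, so these comparisons cannot be taken as independent repeats. FOSB and FOSL2 were again the 2 members called at 2 h, where 0.925% of genes were called. FOSL2 had 2625, 1922, 2145 and 2065 with GSK and 4819, 4101, 4798 and 3570 with both drugs, without overlap. Its difference was 0.98 ± 0.15 (limma adjusted p = 5.93e-05), and 0.91 without replicate 3 (limma adjusted p = 0.000317). The other 4 FOSL2 probe sets, which rose by 0.92, 1.13, 1.05 and 1.01, were all called.

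FOSB had 55.0, 36.4, 28.3 and 32.6 with GSK at 2 h and 113, 80.2, 82.0 and 64.5 with both drugs. All 4 arrays with both drugs were higher than all 4 with GSK, and the difference was 0.90 ± 0.24 (limma adjusted p = 0.0401). This FOSB call was lost when any of the 4 replicate numbers was left out (limma adjusted p = 0.218 without replicate 3) and under 9 other alternatives. With the block 5 members were called, against 3.46% of all genes: FOS (1.04, limma adjusted p = 0.0039), FOSL1 (-0.55, 0.00418) and JUNB (0.99, 6.25e-05) beside FOSB and FOSL2. FOSL1 thus fell and the other 4 rose, while JUN at -0.39 was not called (limma adjusted p = 0.0639 with the block). Without replicate 3 and with no block FOSL1 was called as well (-0.56, limma adjusted p = 0.0484).

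At 1 h both drugs against GSK called no member by limma, against 0.142% of all genes, and 2 members had an unadjusted p under 0.05 (2.46% of all genes). These were FOSL2 at 0.49 ± 0.15 (limma adjusted p = 0.644) and JUNB at 0.74 ± 0.36, while FOS stood at 0.85 ± 0.53. At 6 h no member was called by limma (0.359% of genes), and 1 had an unadjusted p under 0.05 (5.84% of all genes). With the block at 6 h FOSL2 (0.50, limma adjusted p = 0.027) and JUNB (0.62, limma adjusted p = 0.0295) rose, against 3.06% of genes. Neither held with the block and without replicate 3, where FOSL2 had a limma adjusted p of 0.167 and JUNB one of 0.283. At 18 h no gene at all was called by limma (0%), and 0 of the 7 members had an unadjusted p under 0.05.

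Both drugs against vehicle use the same vehicle arrays as indacaterol against vehicle, so the values stand here side by side. At 2 h FOSL2 had a difference of 1.11 ± 0.15 (limma adjusted p = 2.75e-06) and FOSB one of 0.94 ± 0.24 (limma adjusted p = 0.0246), and these 2 members were called against 1.05% of genes. The FOSB call was lost without replicate 1, 2 or 3 (limma adjusted p = 0.367 without replicate 3). It was also lost when any 1 of the vehicle arrays 3 and 4 or of the arrays 1, 2 and 3 with both drugs was left out. With the block 6 members were called at 2 h, against 3.45% of genes. FOS (1.20, limma adjusted p = 0.000537) and JUNB (0.81, 0.00136) were then higher and FOSL1 (-0.63, 0.000804) and JUN (-0.51, 0.00601) lower. All 4 numbered pairs showed each of these directions in the probe set used for the gene.

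In replicates 1 to 4 JUN, by the probe set used, fell with both drugs by 0.52, 0.53, 0.54 and 0.45 on the log2 scale at 2 h. Its signals of 3331, 3017, 1880 and 2456 with vehicle became 2315, 2089, 1292 and 1793. The groups overlapped, and replicate 3 was the lowest array of each. The other JUN probe sets differed by -0.64, -0.59 and -0.17 in the fit without the block, none called. The last of them did not fall in every pair. Its signals of 331, 301, 269 and 284 with vehicle became 334, 297, 198 and 231. FOSL1 fell in the same pairs by 0.45, 0.79, 0.49 and 0.77, from 570.0, 833, 327 and 518 to 413, 475, 228 and 297. Without replicate 3 and with no block FOSL1 was called (-0.67, limma adjusted p = 0.00822). In the blocked fit that left out replicate 3, FOS (limma adjusted p = 0.00339), FOSL1 (0.0011), FOSL2 (2.02e-07), JUN (0.0377) and JUNB (0.0151) were still called, and FOSB was not (0.121).

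**Figure D2:**
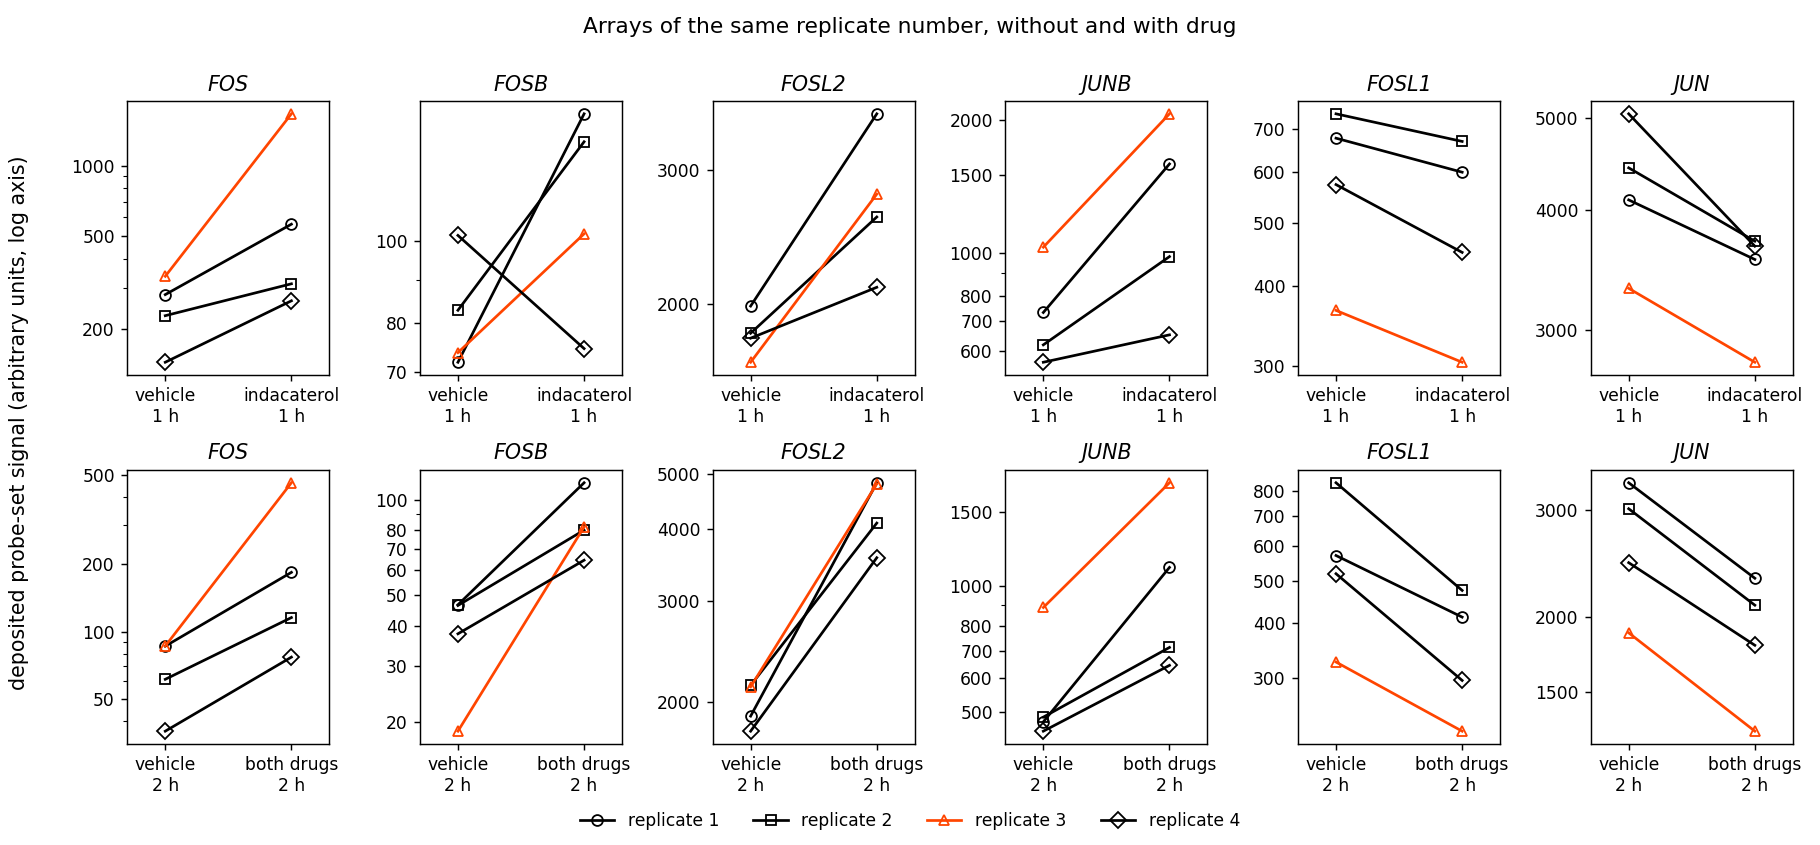
Deposited signal (arbitrary units, log axis) of 6 members in arrays of the same replicate number, joined by lines, for vehicle against indacaterol at 1 h (upper row) and vehicle against both drugs at 2 h (lower row), with replicate 3 in orange. Every line of FOS, FOSL2 and JUNB rises and every line of FOSL1 and JUN falls in both rows, whereas FOSB in replicate 4 went from 102 to 74.6 at 1 h.

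With both drugs at 1 h no member was called by limma (0.283% of genes), and 1 had an unadjusted p under 0.05 (9.38% of all genes). FOS differed by 1.03 ± 0.53, JUNB by 0.69 ± 0.36 and FOSL2 by 0.57 ± 0.15. At 6 h no member was called by limma against 0.759% of genes, and 1, FOSL2, had an unadjusted p under 0.05 (7.64% of all genes). With the block at 6 h FOSL2 (0.53, limma adjusted p = 0.0103) and JUNB (0.58, 0.0326) were called, against 5.27% of genes. Without replicate 3 and with the block the FOSL2 value was 0.0719 and the JUNB value 0.188. FOSL2 at 6 h had 2103, 1726, 1553 and 1945 with vehicle and 2943, 2383, 2810 and 2458 with both drugs, without overlap. Of the other FOSL2 probe sets at 6 h, 1 differed by 0.53 and 3 by 0.18 to 0.22, none called. At 18 h 0.0354% of genes were called by limma and no member, and 0 members had an unadjusted p under 0.05.

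With GSK alone none of the 7 genes was called by limma at any time. It called 0.00506% of genes at 1 h and 0% at 2, 6 and 18 h, with no member having an unadjusted p under 0.05 and none called with the block. The member differences ran from -0.25 to 0.17 over the 4 times. For FOSL2 at 2 h the difference was 0.13, with a 95% interval from -0.18 to 0.44, and for FOSB 0.03 from -0.44 to 0.50. For FOS at 1 h it was 0.17 from -0.89 to 1.24. These intervals come from the fit without the block, although the arrays met the pairing rule at 1 h.

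Adding GSK to indacaterol called no gene at 1, 2, 6 or 18 h (0% each), and no member had an unadjusted p under 0.05. At 2 h FOSL2 differed by 0.05 between both drugs and indacaterol (95% interval -0.26 to 0.36). FOSB differed by -0.11 (-0.58 to 0.36) and FOS by -0.22 (-1.28 to 0.85), all in the fit without the block. At 6 h FOSL2 had 2415, 2530, 1675 and 2373 with indacaterol, against the 2943, 2383, 2810 and 2458 with both drugs given above. The difference was 0.25, from -0.06 to 0.56, and replicate 3 had the widest gap of the 4 pairs. The interaction, both drugs minus GSK against indacaterol minus vehicle, called no gene at any time by limma (0%), and 0 members had an unadjusted p under 0.05. For FOSL2 the interactions ran from -0.09 to 0.21, each ± 0.22. These intervals bound the effect of the added drug and do not show that it was absent.

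**Figure D3:**
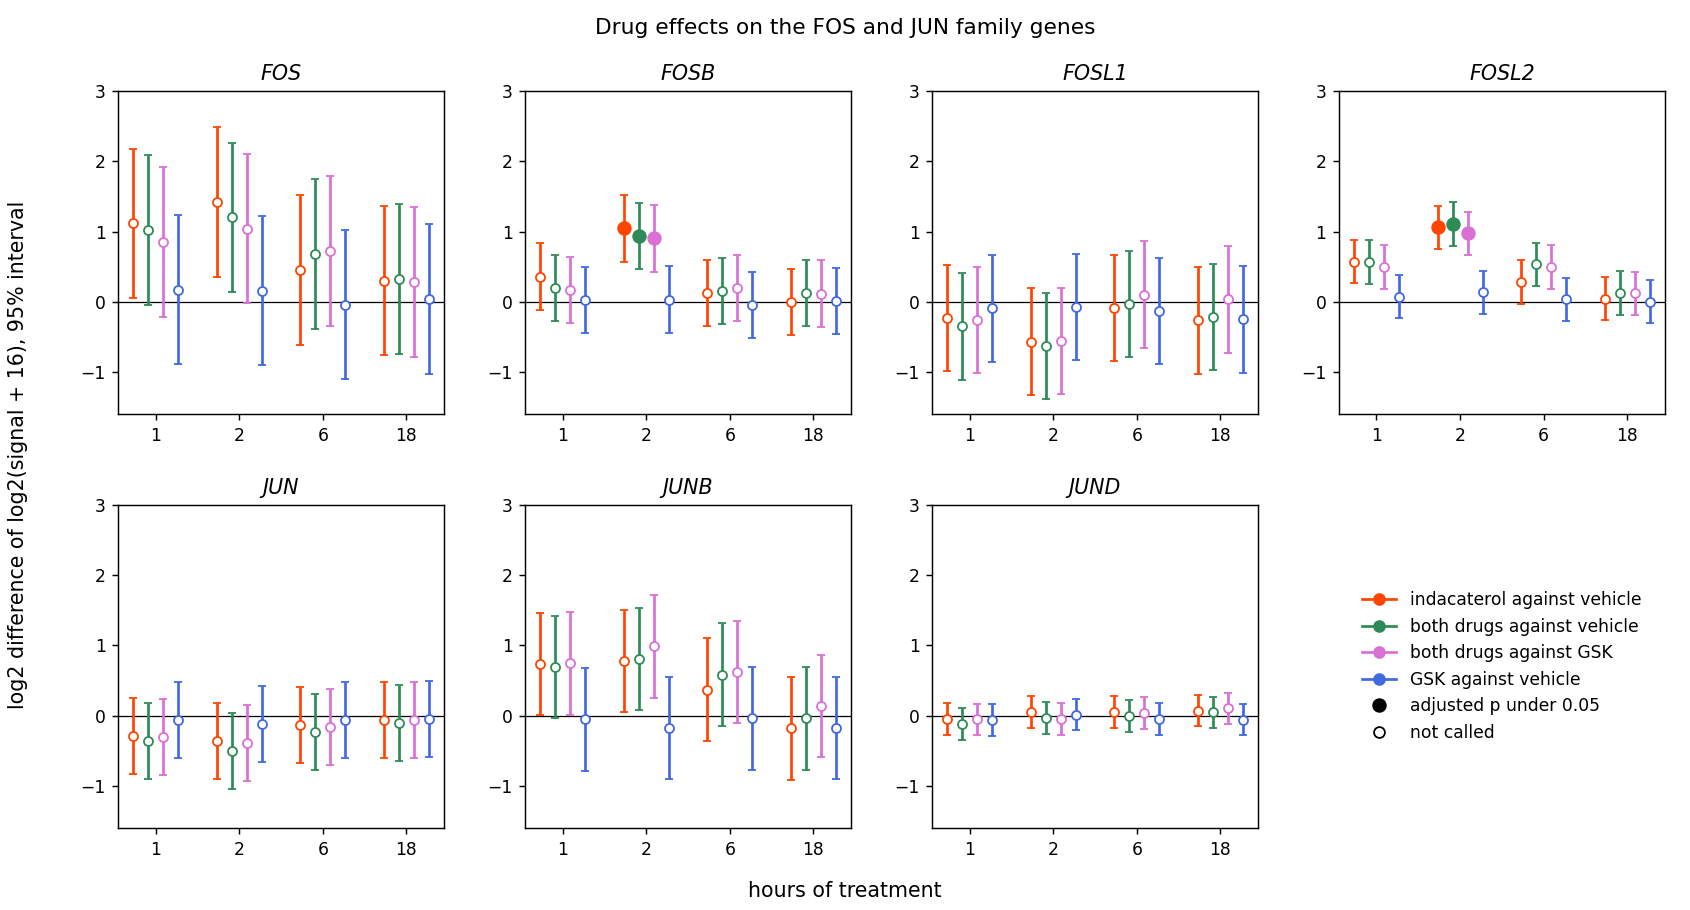
Log2 difference of log2(signal + 16) with its 95% interval against hours of treatment for each gene, for indacaterol against vehicle, both drugs against vehicle, both drugs against GSK and GSK against vehicle; filled circles have a limma adjusted p under 0.05. The 6 filled circles are FOSB and FOSL2 at 2 h, between 0.90 and 1.11, and the GSK circles lie between -0.25 and 0.17.

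Without drug, FOSB fell over culture time, and with the block FOS, JUN, JUNB and JUND fell with it. FOSB signals in vehicle were 71.8, 82.8, 73.7 and 102 at 1 h, then 46.7, 46.5, 18.7 and 37.8 at 2 h. They went on to 19.0, 25.8, 6.63 and 3.43 at 6 h and to 8.36, 13.3, 6.92 and 9.04 at 18 h. The 1 h arrays lay above all arrays of every later time. At 6 h the FOSB difference from 1 h was -1.79 ± 0.24 (limma adjusted p = 2.45e-06, 1.21% of genes called), and at 18 h -1.95 ± 0.24 (limma adjusted p = 2.5e-07, 1.58% of genes). It was the 1 member called at each of these times. Without replicate 3 the differences were -1.72 (limma adjusted p = 0.000779) and -1.94 (2.4e-05). At 6 h the call was lost when only these 2 groups were fitted (limma adjusted p = 0.0693). At 2 h the difference of -0.91 ± 0.24 was not called (limma adjusted p = 0.0707).

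FOS in vehicle went from 280.1, 227, 336 and 144 at 1 h to 86.3, 61.4, 86.4 and 36.0 at 2 h and to 63.5, 57.2, 80.8 and 25.8 at 6 h. It stood at 103, 62.2, 163 and 66.7 at 18 h. All 2 h and 6 h arrays were below all 1 h arrays, and at 18 h replicate 3 lay above the lowest 1 h array. The differences from 1 h were -1.65 at 2 h, -1.86 at 6 h and -1.22 at 18 h, each ± 0.53, with limma adjusted p values of 0.147, 0.0664 and 0.377. At 2 h no member was called by limma, where 0.192% of genes were, and 3 had an unadjusted p under 0.05 (12.5% of all genes). With the block FOS was called at 6 h (limma adjusted p = 6.3e-07) and 18 h (0.000425). Without replicate 3 and with no block FOS was called at 6 h as well (-1.85, limma adjusted p = 0.00663), and so was JUN at 6 h (-0.67, 0.0101) and at 2 h (-0.63, 0.042).

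With the block 6 of the 7 genes were called lower at 6 h, against 7.02% of all genes, and 5 at 18 h, against 7.92%. JUN fell by 0.72 at 6 h (limma adjusted p = 7.64e-05 with the block), from 4101, 4431, 3315 and 5046 to 3154, 2634, 1768 and 2746. These 2 JUN groups did not overlap. JUNB differed at 6 h by -0.82, FOSL1 by -0.71 and JUND by -0.29, with limma adjusted p values of 0.00124, 0.0002 and 0.000716 with the block and of 0.35, 0.497 and 0.26 without it. At 18 h JUN (-0.43), JUNB (-0.78) and JUND (-0.22) were called with the block and FOSL1 (-0.29) was not. Without replicate 3 and with the block all 6 were still called at 6 h and 4 at 18 h, where JUN had a limma adjusted p of 0.102. The other 3 JUN probe sets differed at 6 h by -1.17, -1.01 and -0.68, in the direction of the first.

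FOSL2 was level over time in vehicle in the probe set used for the gene. Its vehicle means were 1824, 1987, 1832 and 1919 at 1, 2, 6 and 18 h, and its differences from 1 h lay between -0.00054 and 0.12, each ± 0.15. The other 4 FOSL2 probe sets were lower at 6 h than at 1 h, by values not past the threshold. At 18 h their vehicle means were also lower, at 1243, 674, 237 and 236, against 1539, 767, 328 and 283 at 1 h. In a moderated F-test over the 4 vehicle times FOSB was the 1 member called (limma adjusted p = 5.52e-08, 6.65% of genes called). FOS had an adjusted p of 0.0609 in this limma F-test and FOSL2 one of 0.982. Without replicate 3 the F-test also called FOS (limma adjusted p = 0.00324), JUN (0.00378) and FOSL1 (0.0466). The share of all genes called in that fit is not given here, so these calls are no comparison with all genes.

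The GSK arrays share none with vehicle and gave the time course under GSK. The same replicate numbers recur in both, so this is not taken as an independent repeat. FOSB went from 68.2, 90.2, 72.4 and 109.7 at 1 h to 9.88, 17.2, 9.75 and 10.0 at 6 h and 6.98, 14.6, 9.17 and 7.70 at 18 h. Neither later group overlapped the 1 h group. FOSB was called at 6 h (-1.86 ± 0.24, limma adjusted p = 8.33e-07) and at 18 h (-1.97 ± 0.24, limma adjusted p = 2.41e-07). FOS was called at 6 h (-2.07 ± 0.53, limma adjusted p = 0.0443), from 308, 179, 535 and 172 to 61.8, 41.3, 83.7 and 31.5. Leaving out any 1 of these 8 FOS arrays ended the call, as did leaving out replicate 1, 2 or 4, while without all arrays of replicate 3 it was kept (-1.94, limma adjusted p = 0.00686). In the fit of all 41091 probe sets FOS was not called (limma adjusted p = 0.0543). Thus 2 members were called at 6 h (0.693% of genes) and 1 at 18 h (1.89%), all lower, and none at 2 h (0.0961%), where 3 members had an unadjusted p under 0.05 (8.45% of all genes). Without replicate 3 JUN was called at 2 h (-0.67, limma adjusted p = 0.0348) and 6 h (-0.65, 0.0167), FOSL1 at 6 h (-0.65, 0.0256) and JUNB at 18 h (-0.91, 0.0494).

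With the block 3 members were called in GSK at 2 h (FOS, FOSB and JUN, against 2.36% of genes), and 6 at both 6 h (4.77%) and 18 h (9.0%), all lower. FOSL2, by the probe set used, was the member not called, at 0.18 at 2 h, -0.04 at 6 h and -0.00081 at 18 h. Its other probe sets had lower GSK means at 18 h, at 1197, 626, 237 and 230, against 1570, 738, 335 and 291 at 1 h. JUN in GSK fell by 0.74 at 2 h, by 0.74 at 6 h and by 0.42 at 18 h. JUNB fell by 0.81 at 6 h and by 0.90 at 18 h. With the block FOS differed by -1.66 at 2 h (limma adjusted p = 3.37e-05) and by -1.35 at 18 h (8.28e-05). FOSB at 2 h differed by -0.91 (limma adjusted p = 0.00766 with the block). For FOSL1 the values were -0.75 at 6 h (0.000102) and -0.45 at 18 h (0.0156). For JUND they were -0.27 at 6 h (0.002) and -0.21 at 18 h (0.00989). With the block and without replicate 3 FOSB at 2 h was no longer called (limma adjusted p = 0.0575), nor were FOSL1 (0.0526) and JUN (0.176) at 18 h.

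Epithelial markers also moved over this interval. From 1 to 18 h the median difference of the 8 markers was -0.37 in vehicle, against 0.0011 over all genes, and -0.29 in GSK, against -0.0062. KRT18 was the marker called, and it was lower, at -0.49 in vehicle (limma adjusted p = 0.000208) and -0.48 in GSK (0.000234). With the block 5 of the 8 were called in vehicle, 1 higher and 4 lower, against 7.92% of all genes. In GSK 4 of the 8 markers were called, 1 higher and 3 lower, against 9.0%. Their part in the 18 h results was not tested.

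**Figure D4:**
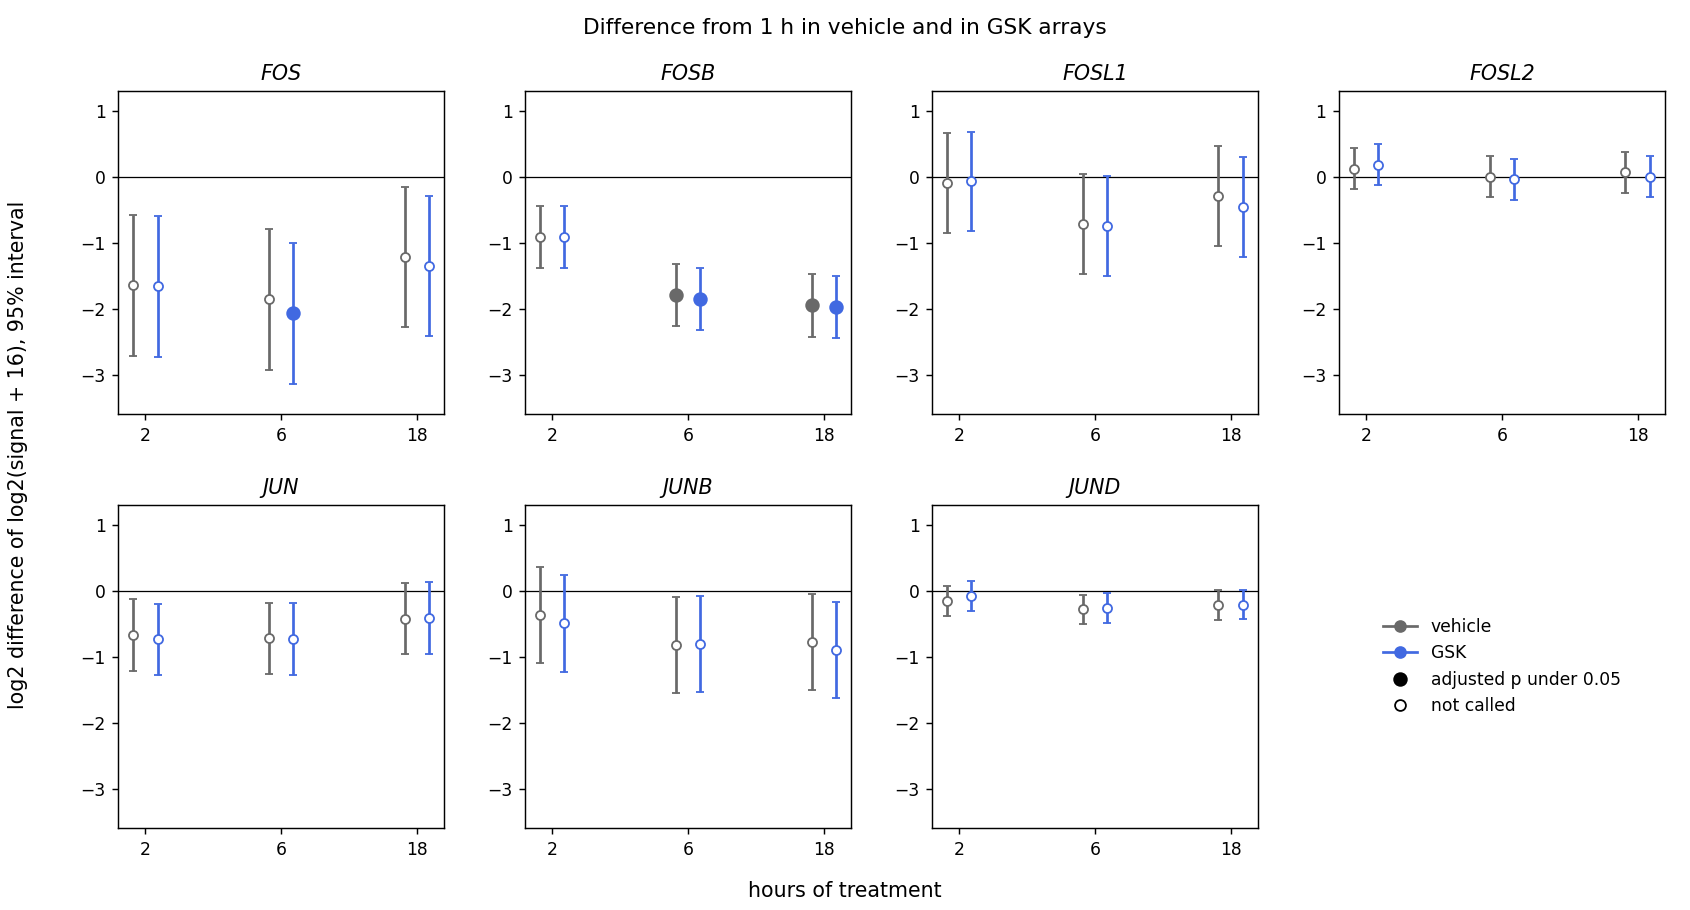
Log2 difference from 1 h of log2(signal + 16), with its 95% interval, at 2, 6 and 18 h in vehicle (grey) and GSK (blue) arrays for each gene; filled circles have a limma adjusted p under 0.05. FOSB is filled at 6 and 18 h in both series, FOS at 6 h in GSK, and FOSL2 stays between -0.04 and 0.18.

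Over the 16 groups the order of the group means differed between members. FOS was highest with indacaterol at 1 h (701 ± 658, SD, n = 4) and lowest with GSK at 6 h (54.6 ± 23.2), a span of 3.01 on the log2 scale. FOSB went from 112 ± 30.2 with indacaterol at 1 h to 9.40 ± 2.74 with vehicle at 18 h, a span of 2.31. JUNB ran from 1324 ± 631 with indacaterol at 1 h to 363 ± 52.2 with indacaterol at 18 h, a span of 1.70. FOSL2 ran from 4322 ± 602 with both drugs at 2 h to 1832 ± 242 with vehicle at 6 h, a span of 1.23. JUN had its highest mean with vehicle at 1 h (4223 ± 721) and its lowest with both drugs at 2 h (1872 ± 442), a span of 1.18. FOSL1 spanned 0.84, from 589 ± 163 with vehicle at 1 h to 335 ± 131 with GSK at 6 h. JUND spanned 0.33, from 6221 ± 653 to 4950 ± 564 in the same groups.

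Groups next to each other in these orders overlapped in their arrays, with 1 exception. FOSB went from 82.5 ± 13.6 in vehicle at 1 h, the sixth of its means, to 38.1 ± 11.8 with GSK at 2 h, the seventh, with no overlap of the arrays. Across the 16 group means FOSB and JUNB correlated at r = 0.93, FOS and JUNB at 0.83 and FOS and FOSB at 0.81. JUN and FOSL2 correlated at -0.58 and JUN and JUNB at 0.04. These correlations are descriptions over 16 means that share treatments, times and replicates.

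**Figure D5:**
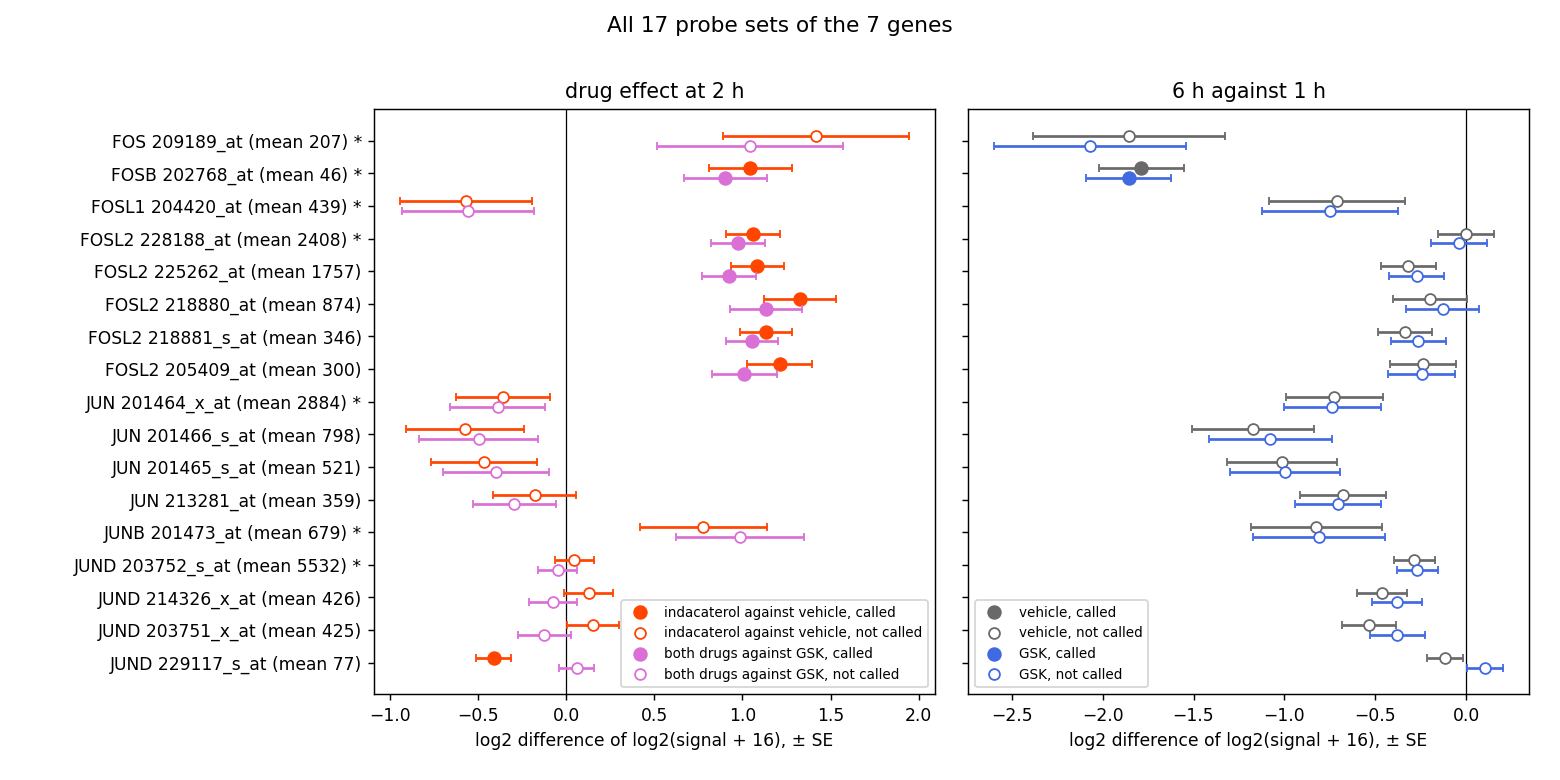
Log2 difference with its SE for all 17 probe sets, fitted with all 41091 probe sets, for drug effects at 2 h (left) and 6 h against 1 h (right); asterisks mark the probe set used for the gene, and filled circles have a limma adjusted p under 0.05. All 5 FOSL2 probe sets are filled at 2 h in both drug comparisons, whereas in the JUND group 1 probe set of mean signal 77.3 is filled at -0.41 in 1 of them; FOS in GSK on the right is open, with an adjusted p of 0.0543 in this limma fit.

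The genes most alike each member over the 16 group means were taken from 415 genes with a mean signal of at least 100 and a span of at least 1 on the log2 scale. For FOS they were SLC25A25 (r = 0.97), ATF3 (0.93) and ID1 (0.92), and for FOSB NR4A1 (0.95), DUSP5 (0.95) and CSRNP1 (0.93). For FOSL2 they were LURAP1L (0.99), CPEB4 (0.98) and IRX1 (0.97). JUNB was followed by MYC (0.98), FOXC2 (0.97) and ERRFI1 (0.97), and JUN by EGR1 (0.97), DUSP6 (0.86) and TNFAIP8L1 (0.84). FOSL1 and JUND spanned less than 1 and were not matched. ATF3 is itself a partner of JUN proteins, and DUSP5 and DUSP6 are phosphatases of the kinase ERK.

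Genes that act with AP-1 were followed as lists. Among 13 tested bZIP partners of AP-1, MAFF and JDP2 rose with indacaterol at 2 h and none fell, against 1.20% of all genes, with a list median of -0.06 against -0.00018. At 1 h none of the 13 was called, and 2 were called higher with the block, against 1.04% of genes. MAFF, a small MAF protein without an activation domain, rose by 1.41 ± 0.28 (limma adjusted p = 0.00132) and JDP2, a JUN-dimerising repressor, by 0.37 ± 0.09 (limma adjusted p = 0.027). MAFF rose again in both drugs against GSK at 2 h, by 1.13 ± 0.28 (limma adjusted p = 0.0255). MAFF fell by 1.14 on the log2 scale in GSK from 1 to 6 h (limma adjusted p = 0.0325). None of the 13 tested kinases upstream of AP-1 was called by limma in any of 30 comparisons, and 0 to 2 of them had an unadjusted p under 0.05 in a given comparison. With the block 1 or 2 kinases were called in 4 of the 22 comparisons that met the pairing rule: in vehicle at 6 and 18 h and in GSK at 2 and 18 h, each against 1 h. In these 4 comparisons, in that order, the block called 7.02%, 7.92%, 2.36% and 9.0% of all genes. Of 12 regulators of the FOS promoter CREM, a CREB relative that includes a cAMP-inducible repressor, rose with indacaterol at 2 h by 0.55 ± 0.11 (limma adjusted p = 0.00194), the 1 call of that list against 1.20% of all genes, with a list median of 0.03. Without replicate 3 the CREM difference was 0.45 (limma adjusted p = 0.105).

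Of 9 genes that bear on the turnover of AP-1 mRNA and protein activity, 2 rose with indacaterol at 1 h, against 0.212% of all genes, with a list median of 0.01 against -0.02 over all genes. DUSP1, a phosphatase of stress-activated kinases, rose by 0.72 ± 0.12 (limma adjusted p = 0.000251), and ZFP36L1, which promotes decay of AU-rich mRNAs, by 0.77 ± 0.18 (limma adjusted p = 0.039). DUSP1 was called again at 2 h, the 1 call of the 9 (0.62 ± 0.12, limma adjusted p = 0.000898). Of 19 known AP-1 target genes, IL6 rose at 1 h by 3.32 ± 0.47 (limma adjusted p = 1.31e-05) and at 2 h by 2.77 ± 0.47 (0.00011), and PLAUR, the urokinase receptor, rose at 2 h by 0.61 ± 0.12 (0.00174). The other target genes on the list were not called in either comparison without the block. Thus 1 of 19 was called at 1 h, against 0.212% of all genes, and 2 at 2 h, against 1.20%. With the block 2 of the 19 were called at 1 h, both higher, against 1.04%. The list median was 0.09 at 1 h, against -0.02 over all genes, and 0.10 at 2 h, against -0.00018.

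Among 18 other immediate early genes 4 rose with indacaterol at 1 h, NR4A1 (1.66 ± 0.26), NR4A2 (4.21 ± 0.75), NR4A3 (3.88 ± 0.58) and KLF6 (0.79 ± 0.11), against 0.212% of all genes. With the block 6 were called at 1 h, all higher, against 1.04%, and the list median was 0.25 against -0.02 over all genes. At 2 h the same 4 were called higher, and EGR1 (-1.40 ± 0.19, limma adjusted p = 1.3e-06) and EGR3 (-0.75 ± 0.18, limma adjusted p = 0.0138) fell, against 1.20% of genes called, with a list median of -0.03. EGR1, a zinc-finger factor driven by ERK, was lower again at 6 h (-0.81 ± 0.19, limma adjusted p = 0.0339), a call lost without replicate 3 (limma adjusted p = 0.302). In vehicle from 1 to 6 h none of the 18 rose, and EGR1 (-1.77 ± 0.19), IER2 (-0.84 ± 0.08), IER3 (-1.32 ± 0.28) and NR4A1 (-1.65 ± 0.26) fell, against 1.21% of all genes. With the block 9 of the 18 were called, all lower, against 7.02%. The list median was -0.30 against -0.00043 over all genes. FOSB was thus called lower over that interval together with 4 of these 18 genes.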

How the data were processed

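Gene expression was measured on 64 arrays, 16 groups of 4. The deposited intensity values are linear signals per probe set. Per the submitters' processing notes the tools were PLIER and version 4 of the Transcriptome Analysis Console; their settings and order are not given in the sources used here. The number of arrays, 4 a group, limits the precision. Of 54675 probe sets, 41091 had 1 symbol, 1801 several, 11721 none and 62 were controls. No probe set with several symbols named a member.

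From these, log2(value + 16) was computed and the probe set with the highest mean log2 value kept for each of 19775 genes. One limma model (version 3.58.1, R 4.3.3) with a mean per group was fitted to all arrays (48 residual and 2.92 prior degrees of freedom). Tests were two-sided and p-values were adjusted over all genes by the Benjamini-Hochberg method. A second fit held all 41091 probe sets. The model was run on simulated data with independent noise per array and no replicate effect, which cannot check the replicate structure. "Without replicate" fits leave out all arrays of that number. The shares of all genes called in those fits are not given, so member calls in them are no comparison with all genes.

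A pairing rule decided where the replicate number counts as a block: each of the 4 numbers had to show a correlation above 0.1 between the deviations of its arrays. This held for 20 of 26 comparisons and 2 of 4 interactions, and for neither F-test. The lowest r was 0.0802 for indacaterol at 2 h, 0.0804 for both drugs against vehicle and -0.17 against GSK at 1 h, and 0.0912 for vehicle at 2 h. The labels do not say what the numbers mark.

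Named genes were the 7 members, list genes called in at least 1 comparison, and for each member spanning at least 1 the 3 genes of highest r. List genes called with both drugs alone or at later times are not all printed. The members and lists were chosen with earlier results of these data known. Alternatives were pseudocounts of 1 and 64, quantile normalization, leaving out genes with a mean signal under 100, the block, fitting only the groups compared, the mean over probe sets, and leaving out replicates or arrays.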

Additional observations from a re-analysis of the deposited data

Results flagged for a closer look

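In 17 of 112 groups (7 genes in 16 groups of 4), 1 array stood apart by Dixon's criterion, a gap to its nearest neighbour that exceeds the 95% critical share of the group's range. Chance flags about 1 in 20 groups. Replicate 3 was that array in 15 of the 17.
FOSL1 was low in replicate 3 at 147 in vehicle at 6 h and 290.2 at 18 h, at 210.4 with GSK at 18 h, at 204 with indacaterol at 18 h and at 176 with both drugs at 6 h. The other arrays of these groups lay between 387 and 555. JUN was low in replicate 3 at 2245 in vehicle and 1903 with GSK at 18 h, at 2774 and 1838 with indacaterol at 1 and 18 h, and at 1293 with both drugs at 6 h. The other JUN arrays of these groups lay between 2428 and 3713. FOSL2 was low in replicate 3 at 1502 with GSK at 18 h and at 1675 and 1423 with indacaterol at 6 and 18 h. FOS was high in replicate 3 with indacaterol at 18 h, at 203 against 89.9 to 104. JUNB was high in replicate 3 in vehicle at 2 h, at 888 against 449 to 485.
The 2 others were FOSB in replicate 2 with GSK at 6 h, at 17.2 against 9.75 to 10.0, and JUND in replicate 1 with indacaterol at 1 h, at 6708 against 5780 to 5794. What sets replicate 3 apart was not tested.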

How the results depend on the processing

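Over all alternatives no member's called difference changed sign. The 3 FOSL2 calls at 2 h held in 20 of 20 alternatives each (0.88 to 1.21), and the FOSB calls at 18 h in vehicle and at 6 and 18 h in GSK in 19 of 19. The FOSB calls at 2 h were lost in 7 of 19 alternatives against vehicle with indacaterol, 11 with both drugs and 13 for both drugs against GSK. The last were a pseudocount of 1, fitting only the groups compared, leaving out replicate 1, 2, 3 or 4, leaving out any 1 of 6 single arrays, and the block without replicate 3. FOS at 6 h in GSK was lost in 14 of 20.
Counts of members called moved as follows. Except with the block, the share of all genes called under each setting is not given here. The counts are therefore no comparison with all genes. With a pseudocount of 1 they were 1 in place of 2 in the 3 comparisons called at 2 h, and 2 in the vehicle F-test. With 64 they were 1 for vehicle and GSK at 2 h against 1 h and 1 for GSK at 6 h. With quantile normalization they were 1, in place of 0, for indacaterol and both drugs against vehicle at 1 h, both drugs against vehicle and against GSK at 6 h, and the indacaterol F-test. Without dim genes, FOSB among them, they were 1 in the 3 comparisons at 2 h, 0 for vehicle and GSK at 18 h, 1 for GSK at 6 h, and 1 in the indacaterol F-test. With the mean over probe sets they were 2 for vehicle at 6 h, 1 for GSK at 6 h and 1 in the indacaterol F-test. With only the groups compared they were 1 in the 3 comparisons at 2 h, 0 for vehicle and 1 for GSK at 6 h.
With the replicate block they were 3 for indacaterol at 1 h, 5 at 2 h (FOS, FOSB, FOSL2 and JUNB higher, FOSL1 lower), 3, 6 and 2 for both drugs against vehicle at 1, 2 and 6 h, and 1, 5 and 2 against GSK. They were 3, 6 and 5 for vehicle and 3, 6 and 6 for GSK at 2, 6 and 18 h against 1 h, 6 in the vehicle F-test and 2 in the indacaterol F-test. Those for indacaterol at 2 h, both drugs at 1 h, vehicle at 2 h and the F-tests come from arrays that did not meet the pairing rule. The block changed no other count. With the block 3.80% of all genes were called for indacaterol and 4.34% for vehicle at 2 h. For both drugs at 1 h the share was 1.43% against vehicle and 0.480% against GSK. It was 22.3% in the vehicle F-test and 1.99% in the indacaterol F-test. With the block and without replicate 3, chosen after seeing the data, they were 1 and 5 for indacaterol at 1 and 2 h, 5 and 4 for both drugs at 2 h against vehicle and GSK, 2, 6 and 4 for vehicle, 2, 6 and 4 for GSK, 6 and 1 in the F-tests.
Leaving out replicates or single arrays gave 0 to 1 members for indacaterol at 1 h, 1 to 2 for each comparison called at 2 h, 0 to 1, 1 to 3 and 1 to 1 for vehicle, 0 to 1, 1 to 4 and 1 to 2 for GSK at 2, 6 and 18 h, and 1 to 4 in the vehicle F-test. All other counts stayed at 0. The causes were not tested, beyond FOSB itself being left out as dim.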
